A study of Saccharomyces cerevisiae with 8 samples.

Results

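The ZMM genes of Saccharomyces cerevisiae encode proteins that build crossovers in meiosis. The group described here has 7 members, ZIP2 (YGL249W), CST9 (YLR394W, also called ZIP3), SPO22 (YIL073C, also called ZIP4), SPO16 (YHR153C), MSH4 (YFL003C), MSH5 (YDL154W) and HFM1 (YGL251C, also called MER3). They were chosen by name among 5656 genes that had a probe set of their own on the Affymetrix YG-S98 array. Each member had exactly 1 such probe set, of the plain type designed for a single gene, so no choice between probe sets was needed. All 7 passed the filter on low signal that left 5475 genes for testing.

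RNA came from diploid SK1 cells, a yeast background that enters meiosis rapidly and with high synchrony. The strains were mre11delta (YMD1599) and rad50delta (RKD101), which lack a subunit of the Mre11 complex, spo11Y135F (RKD1312), in which the catalytic tyrosine of the break-forming enzyme Spo11 is replaced, and wild type (MJL1720). All 3 mutants are known to form no meiotic double-strand breaks. Each strain was sampled at 4 h after transfer into acetate sporulation medium, labelled prophase, and at 0 h, in presporulation medium, which gave 8 arrays with 1 array per strain and time. The labels name no further alleles, and no strain was measured again from a separate culture.

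In meiosis each pair of homologous chromosomes needs at least a single crossover to separate correctly. The ZMM proteins bind recombination intermediates, protect them from being taken apart and bias them towards crossovers that are spaced along the chromosome, and at the same sites they start the assembly of the synaptonemal complex. Zip2, Zip4 and Spo16 work as a complex, Zip3 is a RING-finger protein related to SUMO and ubiquitin ligases, Msh4 and Msh5 form a MutS-like clamp, and Mer3 is a DNA helicase. Their genes belong to the early meiotic class, which is repressed during vegetative growth through Ume6 and is switched on by Ime1.

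Signals are the deposited MAS5 values on a linear scale. A change or difference is given in log2(signal + 7), and a signal under a floor of 21 is treated as low, so that a fold against it is only a lower bound. As a check of the labels, the signal of RAD50 in rad50delta was 3.4 at 4 h and 0.6 at 0 h, while the remaining arrays gave 88.4 to 758. For MRE11 the pair of arrays labelled mre11delta gave 108 (4 h) and 84.0 (0 h), and the remaining arrays 45.0 to 192. The MRE11 probes thus do not set that pair apart, and values for this strain rest on the label alone. The marker gene URA3 read 273 at 4 h and 486 at 0 h under the mre11delta label, 2.5 and 4.4 in rad50delta, 91.3 and 357 in spo11Y135F, and 14.8 and 496 in wild type. Its signal thus differed widely between the times within wild type, the strain with which every mutant is compared, and whether that pair of arrays is from the same strain was not tested. RNA was extracted with Trizol for both arrays labelled mre11delta and for wild type at 0 h, and with RNeasy columns for the other 5. Wild type is therefore the only strain whose extraction differs between the times. Median signals ran from 97.3 to 196 over the arrays, and wild type at 4 h was the dimmest. Of 6 markers of meiotic prophase all 6 rose over time (limma adjusted p under 0.05), beside 10.6% of all tested genes. The summed signal of the 6 markers at 4 h was 12805 in the arrays labelled mre11delta, 13830 in rad50delta, 7495 in spo11Y135F and 10492 in wild type, against 108 to 534 at 0 h.

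All 7 ZMM genes were higher at 4 h than at 0 h in all 4 strains, each of which gave 1 pair of arrays. Of all tested genes 27.8% were lower at 4 h in the arrays labelled mre11delta, 26.8% in rad50delta, 53.7% in spo11Y135F and 61.2% in wild type. With the 4 strains as replicates and strain as a block, all 7 passed limma's test at an adjusted p of 0.05 over all 5475 genes, of which 10.6% were called higher and 4.02% lower. The median change of the 7 genes was 4.50, beside 0.19 for all tested genes. Of the 7 genes 6 did not overlap between the times, with every 4 h signal above every 0 h signal, a pattern that 14.4% of tested genes showed (5.41% showed the opposite one). The exception was CST9. Under 3 ways of scaling the arrays all 7 stayed called, with a median change of 4.50 as deposited, 4.11 with median centring and 4.22 with quantile normalization.

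**Figure D1:**
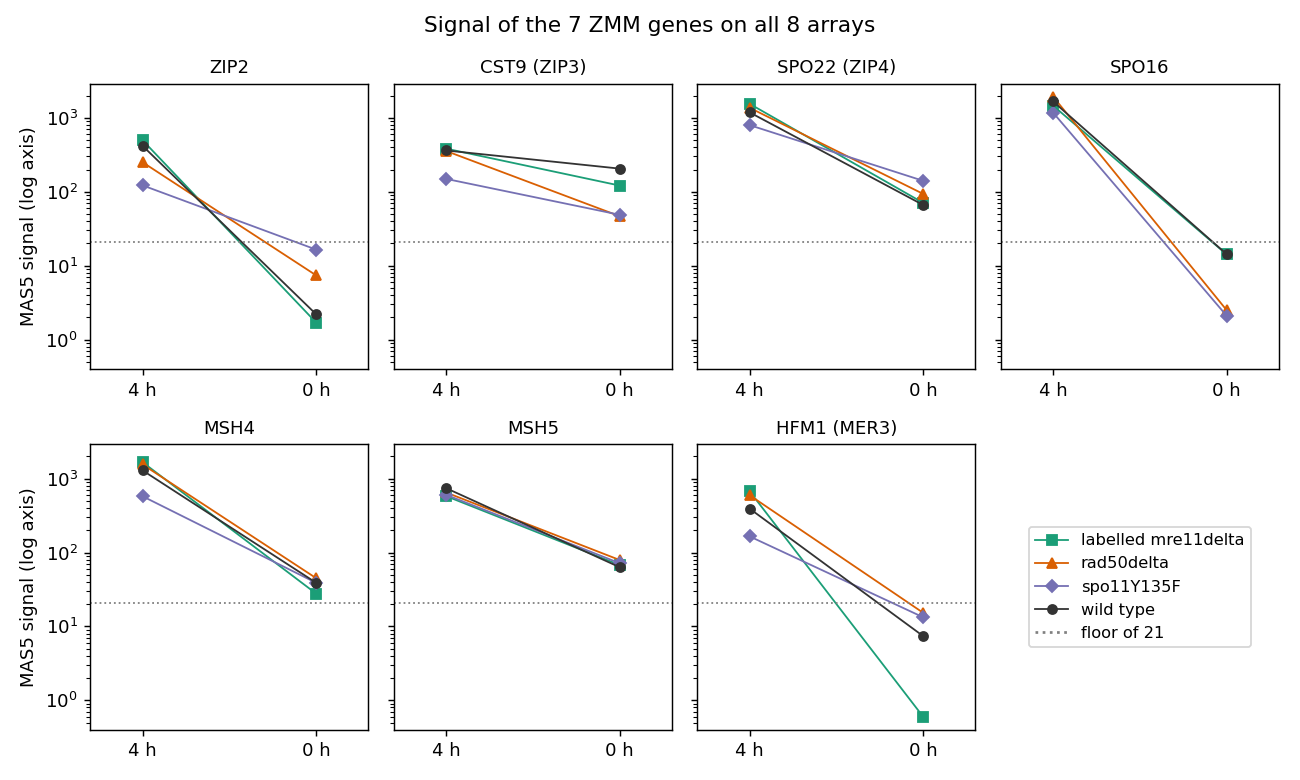
MAS5 signal (log axis) of each ZMM gene at 4 h and at 0 h, 1 panel per gene and 1 line per strain, with the floor of 21 dotted. All lines are higher at 4 h, the 0 h points of ZIP2, SPO16 and HFM1 lie under the floor in all 4 strains, and CST9 has the shallowest lines.

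In the complex of Zip2, Zip4 and Spo16, 2 of the genes were under the floor at 0 h and the other was not, and all were bright at 4 h. SPO16, whose product pairs with Zip2 in a structure-specific DNA-binding unit, read 1465 in the arrays labelled mre11delta, 1939 in rad50delta, 1178 in spo11Y135F and 1667 in wild type at 4 h. At 0 h it read 14.2, 2.5, 2.1 and 14.3 in the same order. The strains lay within 1.65-fold of each other at 4 h, and all 0 h values were under the floor. SPO16 rose by 6.78 ± 0.52 (limma SE, n = 4 strains, limma adjusted p = 2.27e-08), at least 73.2-fold when low values are set to the floor. The SEs given with changes borrow spread from all tested genes. The size of the change depends on the pseudocount, with 7.76 at a pseudocount of 1 and 5.30 at 32.

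ZIP2, the partner that marks sites where synapsis starts, read 499 in the arrays labelled mre11delta, 251 in rad50delta, 122 in spo11Y135F and 419 in wild type at 4 h. The corresponding 0 h signals were 1.7, 7.4, 16.5 and 2.2. The 4 h values of ZIP2 spread over 4.08-fold, as wide as those of HFM1 and wider than those of the other 5 genes. It rose by 4.50 ± 0.57 (limma adjusted p = 8.48e-06), at least 13.5-fold. A RefSeq antisense RNA, RME3, overlaps ZIP2, and no source used here states whether the probes separate the strands.

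SPO22 encodes Zip4, a repeat protein that holds the complex together and links it to the chromosome axis. It read 1550 in the arrays labelled mre11delta, 1371 in rad50delta, 798 in spo11Y135F and 1188 in wild type at 4 h, and 70.8, 93.6, 141 and 66.3 at 0 h. All 8 signals were above the floor. SPO22 rose by 3.64 ± 0.57, a 12.5-fold fitted change (limma adjusted p = 0.000112). Its 0 h signal was highest and its 4 h signal lowest in spo11Y135F, where the change was 2.45, against 4.32 in the arrays labelled mre11delta, 3.78 in rad50delta and 4.03 in wild type.

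CST9 encodes Zip3, which marks the sites of future crossovers. It read 383 in the arrays labelled mre11delta, 357 in rad50delta, 149 in spo11Y135F and 362 in wild type at 4 h, and 121, 46.7, 48.8 and 206 at 0 h. The times overlapped, since wild type at 0 h was brighter than spo11Y135F at 4 h. CST9 rose by 1.66 ± 0.53, a 3.16-fold fitted change with the smallest margin of the group (limma adjusted p = 0.0392, and adjusted p = 0.0527 with no strain block). The call was lost in 7 of 15 alternative settings, among them each of the 4 that left out a strain, with a limma adjusted p of 0.343 when rad50delta was dropped, 0.0798 when the mre11delta arrays were, 0.0642 when wild type was and 0.0534 when spo11Y135F was. Within rad50delta and spo11Y135F alone, whose arrays share an extraction method, the change was 2.12 (limma adjusted p = 0.00380). That fit holds only this pair of strains, with 1 array per strain and time. Its p-value leans on the spread borrowed from all tested genes and does not make the call of CST9 firm.

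The strains differed in the change of CST9. In wild type it was 0.80, the only change of a ZMM gene in any strain that stayed under 2-fold. It was 1.61 in the arrays labelled mre11delta, 2.76 in rad50delta and 1.49 in spo11Y135F. At 0 h the Trizol arrays, which are those labelled mre11delta and wild type, were both at least 2-fold brighter for CST9 than the RNeasy arrays of rad50delta and spo11Y135F. Of all tested genes 10.1% showed that pattern and 7.43% its mirror image. Strain and extraction cannot be told apart at 0 h.

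MSH4 and MSH5 encode the clamp that slides on recombination intermediates. MSH4 read 1669 in the arrays labelled mre11delta, 1554 in rad50delta, 577 in spo11Y135F and 1292 in wild type at 4 h, and 27.8, 45.0, 38.9 and 39.0 at 0 h. It rose by 4.75 ± 0.55, a 26.8-fold fitted change (limma adjusted p = 2.71e-06). MSH5 read 580 in the arrays labelled mre11delta, 650 in rad50delta, 605 in spo11Y135F and 744 in wild type at 4 h, and 67.8, 79.2, 71.7 and 63.3 at 0 h. Its rise of 3.07 ± 0.53 was an 8.39-fold fitted change (limma adjusted p = 0.000321).

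The partners of the clamp differed in how evenly the strains carried them. MSH5 varied least of the 7 genes, by 1.28-fold among the strains at 4 h and by 1.25-fold at 0 h, while MSH4 varied by 2.89-fold at 4 h and by 1.62-fold at 0 h. The SD of log2(signal + 7) over the 4 strains at 4 h was 0.16 for MSH5 and 0.70 for MSH4. In spo11Y135F MSH4 was 2.24-fold under the lowest other strain, whereas MSH5 was lowest in the arrays labelled mre11delta.

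HFM1 encodes Mer3, the helicase that extends the joint between homologous chromosomes, and its transcript is among those spliced with the help of Mer1. It read 675 in the arrays labelled mre11delta, 596 in rad50delta, 165 in spo11Y135F and 393 in wild type at 4 h. The 0 h signals were 0.6, 15.3, 13.3 and 7.4, all under the floor. HFM1 rose by 4.78 ± 0.55 (limma adjusted p = 2.71e-06), at least 19.2-fold. The probe set gives 1 value per array and does not tell spliced from unspliced transcript.

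**Figure D2:**
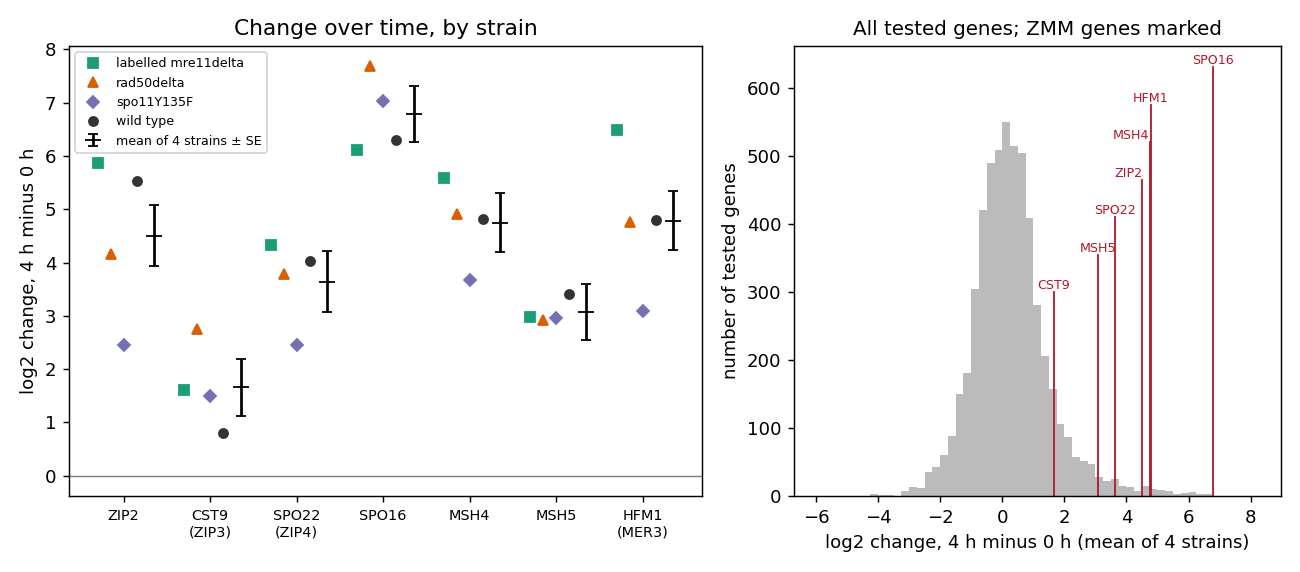
Left, log2 change from 0 h to 4 h of each ZMM gene, with 1 point per strain and the mean of 4 strains with its limma SE. That SE borrows spread from all tested genes and is not the spread of the points. Right, the distribution of that mean over all 5475 tested genes, with the 7 ZMM genes marked from CST9 at 1.66 to SPO16 at 6.78; the lengths of the red lines carry no value.

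Within single strains the median change of the 7 genes was 5.59 in the arrays labelled mre11delta, 4.16 in rad50delta, 2.96 in spo11Y135F and 4.80 in wild type. The medians of rad50delta and wild type are the changes of ZIP2 and HFM1, which were under the floor at 0 h, so their size depends on the pseudocount. With a pseudocount of 32 the medians were 3.98, 3.48, 2.26 and 3.63 in the same order. At least 2-fold rises numbered 7, 7, 7 and 6 of 7 in that order, while 40.6%, 34.4%, 22.7% and 15.5% of all tested genes rose as much and 10%, 5.94%, 26.2% and 31.1% fell as much. These single pairs of arrays carry no error. ZIP2, also under the floor at 0 h, rose at least 23.7-fold in the arrays labelled mre11delta, 12.0-fold in rad50delta, 5.81-fold in spo11Y135F and 19.9-fold in wild type. The changes of MSH5, measured at both times, were 2.97, 2.93, 2.96 and 3.42 in the same order. In spo11Y135F the change was the smallest of the 4 strains for SPO22 and MSH4. For SPO16, with all 0 h signals under the floor, the changes have no order between strains, and the rise was at least 69.8-fold in the arrays labelled mre11delta, 92.3-fold in rad50delta, 56.1-fold in spo11Y135F and 79.4-fold in wild type.

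The mutants were compared with wild type at 4 h. In a limma fit of the 3 mutants against the wild type array, which is assumed to vary like the mutants, 0 of the 7 genes and 0 of all tested genes were called, while 8.29% of tested genes had an unadjusted p under 0.05. The estimates ran from -0.73 for ZIP2 (95% interval -2.99 to 1.52, limma adjusted p = 0.813) to 0.05 for HFM1 (-2.39 to 2.49, limma adjusted p = 0.996). Intervals of this width do not show that the levels were alike. For the change over time in the mutants minus that in wild type, again 0 of 7 and 0 of all tested genes were called, with 5.32% at an unadjusted p under 0.05. Those estimates ran from -1.37 for ZIP2 (95% interval -4.60 to 1.85) to 1.16 for CST9 (-1.20 to 3.51). Over all tested genes the median estimate was positive, 0.64 in the first fit and 0.79 in the second. It stayed so without the arrays labelled mre11delta, at 0.48 and 0.60. The signals were not rescaled here, and wild type at 4 h was the dimmest array. Without the arrays labelled mre11delta, 389 of the tested genes were called in the first fit and 553 in the second, and 0 of the 7 in either.

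Set side by side against the shared wild type array at 4 h, the mutants were not alike. In spo11Y135F all 7 genes were lower than in wild type, from -0.30 for MSH5 to -1.72 for ZIP2, with a median difference of -1.15, beside 39.7% of all tested genes that were lower. ZIP2, MSH4, CST9 and HFM1 were at least 2-fold lower, 4 of 7, where 11.2% of all tested genes were that much lower. In no mutant was any of the 7 genes higher than in wild type by 2-fold or more, although 46.5% of tested genes were in the arrays labelled mre11delta, 29.7% in rad50delta and 30.6% in spo11Y135F. As deposited, the arrays labelled mre11delta gave a median difference of 0.25 and rad50delta one of 0.21, with 2 and 3 of the 7 genes below wild type, beside 6.98% and 9.06% of tested genes. In both strains 0 of the 7 were lower by 2-fold or more, beside 1.55% and 0.457% of tested genes, but 2 of 7 were with median centring (7.36% and 5.59%) and with quantile normalization (6.12% and 4.62%).

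The direction for those strains depended on scaling. All tested genes together were brighter than in wild type at 4 h by a median of 0.94 in the arrays labelled mre11delta, 0.65 in rad50delta and 0.32 in spo11Y135F. After median centring all 7 ZMM genes lay below wild type in each mutant, with median differences of -0.77 in the arrays labelled mre11delta, -0.65 in rad50delta and -1.67 in spo11Y135F, and quantile normalization likewise placed all 7 below. With median centring 54.6%, 63.1% and 55.9% of all tested genes were below wild type in the same order. Only the lower values in spo11Y135F held their direction for all 7 genes under each of the 3 scalings.

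**Figure D3:**
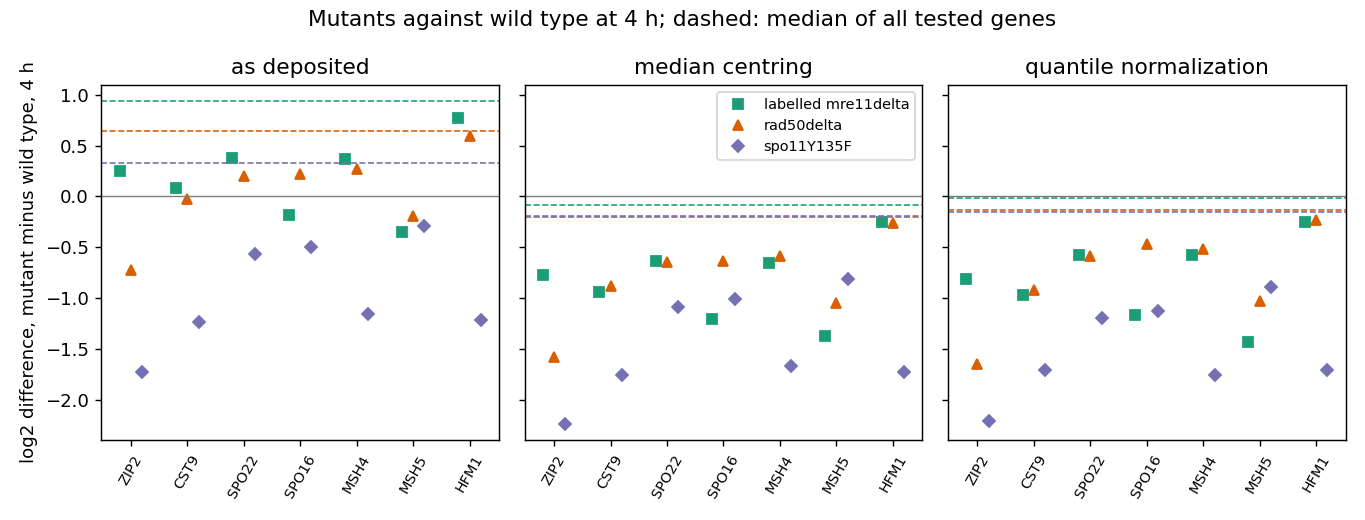
Log2 difference of each mutant from wild type at 4 h for the 7 ZMM genes, under 3 scalings of the arrays, with the median of all tested genes dashed. The points for spo11Y135F lie below 0 in every panel, and those for the other mutants drop below 0 once the arrays are brought to a common median or distribution.

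At 4 h spo11Y135F was the lowest of the 4 strains for 6 of 7 genes, all but MSH5, and for 38.4% of all tested genes. With either other scaling it was the lowest for 5 of 7. As deposited, MSH4, CST9 and HFM1 lay at least 2-fold below the lowest other strain, with signal ratios of that strain to spo11Y135F of 2.24, 2.39 and 2.38, as did 9.41% of tested genes, and ZIP2 lay at 2.06 in signal and just under 2-fold in log2(signal + 7). None of the 7 was that far below the rest in the arrays labelled mre11delta, in rad50delta or in wild type, beside 1.39%, 0.0913% and 14% of tested genes. For CST9 the 2-fold gap was lost with the other scalings. With median centring it differed from wild type by -1.75 in spo11Y135F and by -0.94 in the arrays labelled mre11delta, the next lowest. With quantile normalization these were -1.71 and -0.97. The median difference of the 7 genes from the mean of the other 3 strains was -1.26, beside -0.20 for all tested genes. Against rad50delta, which shares its extraction method and time, spo11Y135F was lower for all 7 genes as deposited, by a log2 difference of 0.10 for MSH5 up to 1.81 for HFM1 (rad50delta minus spo11Y135F). With both other scalings MSH5 turned round, to -0.24 and -0.14.

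Values of other early meiotic genes and of the next stage stand beside these. Of 8 middle sporulation markers 7 rose over time, beside 10.6% of all tested genes. That test pools the strains. In the arrays labelled mre11delta SPS4, SMK1 and CLB1 were lower at 4 h, with changes of -0.50, -0.88 and -0.93, and the rest of the list was higher. In wild type CLB1 was lower as well, with a change of -1.29, and the rest was higher. The 8 genes of the synaptonemal complex and chromosome axis had a median difference of -1.21 between spo11Y135F and the mean of the other strains at 4 h, and 10 genes of break formation one of -0.92. The middle sporulation markers, which are switched on by Ndt80 as cells leave prophase, had one of 3.07. The summed signal of those 8 markers at 4 h was 1659 in the arrays labelled mre11delta, 18877 in rad50delta, 28854 in spo11Y135F and 3023 in wild type, against 820 to 1151 at 0 h. CDC10 alone gave 1209, 3169, 5622 and 961 at 4 h in that order, and 473 to 818 at 0 h. The sums at 0 h and under the mre11delta label are thus mostly CDC10. NDT80 itself read 165, 936, 1689 and 226 at 4 h in that order. SMK1, a kinase of spore wall formation, read 13.3, 2000, 3680 and 68.1. In rad50delta the middle markers were also above wild type, and the ZMM genes had, as deposited, a median difference of 0.21 from wild type (-0.65 with median centring). The part of these markers in the ZMM values was not tested, and in such bulk cultures fewer cells in a stage and less RNA per cell cannot be told apart.

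**Figure D4:**
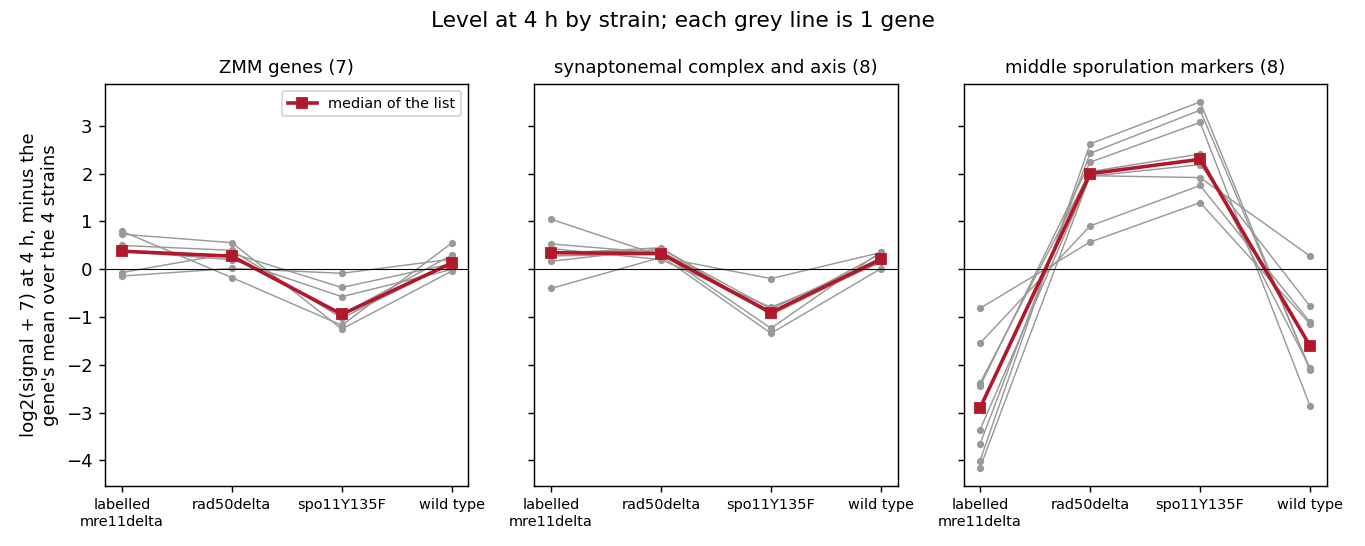
Level at 4 h in each strain relative to the gene's mean over the 4 strains, in log2(signal + 7), for the ZMM genes, the synaptonemal complex and axis genes, and the middle sporulation markers. Grey lines are genes and the red line is the median; the first pair of panels dips in spo11Y135F, where the third is at its highest.

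At 0 h the levels of the 7 genes gave medians of -0.08, 0.29 and 0.16 relative to wild type in the arrays labelled mre11delta, in rad50delta and in spo11Y135F, beside -0.12, -0.27 and 0.10 for all tested genes. None was lower or higher by 2-fold in the arrays labelled mre11delta, where 2.36% and 0.584% of tested genes were. CST9 was lower in rad50delta, by -1.99, beside 21.8% of tested genes lower by 2-fold, and none was as much higher (9.32%). It was also lower in spo11Y135F, by -1.93 (14.2% of tested genes), where SPO22 was higher by 1.01 (18.7%). For SPO16, ZIP2 and HFM1 all 0 h signals were under the floor and have no order.

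Genes of the proteins that work with the ZMM group were counted over time. Of the synaptonemal complex and axis genes 8 of 8 rose, beside 10.6% of all tested genes, with a median change of 5.15. ZIP1, the central element protein that is often counted with the ZMM proteins and is named here after its values were seen, read 468 in the arrays labelled mre11delta, 563 in rad50delta, 231 in spo11Y135F and 493 in wild type at 4 h, against 8.8, 7.1, 27.9 and 16.2 at 0 h. Among break formation genes 6 of 10 rose (median 2.87), among them REC102 and REC114, and among strand exchange genes 6 of 10 (median 2.27), among them DMC1, the meiotic recombinase, and its helper HOP2. SKI8, MRE11, XRS2 and RAD50 were not called over time. RAD50 is deleted in 1 of the strains and MRE11, by its label alone, in another.

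Of the genes for nucleases and helicases that process or resolve recombination intermediates 3 of 10 rose (median 1.43), beside 10.6% of all tested genes. MLH3, the endonuclease subunit that cuts the protected intermediates into crossovers, read 1171 in the arrays labelled mre11delta, 1206 in rad50delta, 804 in spo11Y135F and 1047 in wild type at 4 h, against 6.9, 45.7, 5.9 and 35.4 at 0 h. SGS1, the helicase that the ZMM proteins hold off, rose by 2.43 ± 0.52 (limma adjusted p = 0.00234). MUS81 and MMS4, a nuclease for crossovers outside the ZMM pathway, were not called, with changes of 1.03 and 0.60 (limma adjusted p = 0.206 and 0.463). The mismatch repair relatives of MSH4 and MSH5 were not called either, 0 of 4 tested, with a median change of 0.55. MSH6 changed by 0.41 ± 0.57 and MSH1, the mitochondrial member, by -0.73 ± 0.57.

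MER1, the splicing activator on which the transcripts of HFM1 and SPO22 depend, rose by 3.70 ± 0.53 (limma adjusted p = 4.42e-05). It read 366 in the arrays labelled mre11delta, 329 in rad50delta, 100.4 in spo11Y135F and 261 in wild type at 4 h, and so was also lowest in spo11Y135F. Its other known target transcripts, REC107 and AMA1, rose as well, but AMA1 was highest in spo11Y135F at 4 h, at 898 against 189 in wild type. The constitutive splicing partners NAM8 and TGS1 were not called.

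Over the 8 arrays the genes followed each other closely, which mainly restates the shared step between the times. The correlation of each gene with the mean of the other 6 was 0.78 for CST9 and between 0.97 and 1.00 for the rest (Pearson's r over 8 arrays, given as a description). The 10 genes outside the group whose profile was most like its mean were MEK1, SMP3, ECM11, RNP1, SRT1, KIN2, PIG1, SPO13, HOP1 and SPO11, with r from 0.993 to 0.999. An r of at least 0.95 was reached by 2.06% of tested genes. MEK1, the kinase that steers repair to the homologous chromosome, came first under all 3 scalings, and read 1144 in the arrays labelled mre11delta, 1174 in rad50delta, 494 in spo11Y135F and 1185 in wild type at 4 h.

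HFM1 and ZIP2 lie on either side of RMR1 (YGL250W) on the left arm of chromosome VII, and RMR1 changed by 0.48 ± 0.63 (limma adjusted p = 0.663). SPO22 shares a divergent promoter region with HOP1 (YIL072W), the axis protein gene, which rose by 5.15 ± 0.54. The cyclin gene CLB3, next to MSH5, rose by 2.20 ± 0.62 (limma adjusted p = 0.0193), and PDE1, next to ZIP2, by 1.75 ± 0.56 (limma adjusted p = 0.0370). Of 12 neighbours tested 3 were called higher, beside 10.6% of all tested genes, and 9 were not called.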

How the data were processed

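The authors deposited 1 table of MAS5 signal intensity per probe set, on a linear scale, with MAS5 named in the submitters' processing notes. No source used here gives its version or scaling. Per the labels' protocols, polyadenylated RNA was labelled with biotin for single-colour YG-S98 arrays. The table holds 9335 probe sets, and 6504 with a single gene in the platform annotation were all matched to RefSeq by gene identifier. Plain probe sets went before shared types, then the highest mean. Values were used as deposited, as log2(signal + 7), and a gene needed a mean signal of 21 to be tested. The change over time was tested by limma (3.58.1, under R 4.3.3), blocking on strain, with an eBayes trend and 3 residual degrees of freedom, two-sided, with Benjamini-Hochberg adjustment over all tested genes at 0.05. The same strain names at both times give the pairing. Mutants were compared with wild type at 4 h, and in their change, by limma with 2 residual degrees of freedom each. Since strains stand in for replicates, the residual spread is that between strains. The eBayes step draws each gene's spread towards a trend fitted over all tested genes. The SEs and p-values therefore do not measure a gene's own spread between strains alone. For MSH5 and HFM1 the SD of the change over the strains was 0.23 and 1.39, while the SEs were 0.53 and 0.55. Precision is limited by the number of arrays. The fits were tested on simulated data.

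The members, lists and tests were chosen with earlier results of these data known. The rule for naming genes takes the 7 members, the mutated genes and URA3, up to 4 called genes per list, the 10 genes most like the group, and the markers. Alternatives were 2 scalings, pseudocounts of 1 and 32, no filter and a floor of 70, the mean over probe sets, no trend, no block, extraction as a covariate, the RNeasy pairs alone, and each strain left out. A planned search of promoters for motifs was not run. The lists of entry regulators (3 of 7 rose), SUMO pathway (2 of 10), MER1 splicing (3 of 5), haploid-specific markers (4 of 10 rose) and mitotic markers (0 of 6 rose, 2 fell) were counted as well.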

Additional observations from a re-analysis of the deposited data

Results flagged for a closer look

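Each ZMM gene gave 3 groups of 4 values, its levels at 4 h, its levels at 0 h and its changes over the 4 strains. Among these 21 groups 2 had a value far from the other 3, and chance alone flags about 1 group in 20. Both were flagged on values as deposited. CST9 at 4 h was low in spo11Y135F, at a signal of 149 against 357 to 383 in the other 3 strains, and this gap made up 0.922 of the whole range of log2(signal + 7). The CST9 gap depends on scaling. With median centring CST9 differed from wild type by -0.94 in the arrays labelled mre11delta, -0.88 in rad50delta and -1.75 in spo11Y135F. The other 3 strains then no longer lay close together, and quantile normalization likewise spread them, with -0.97, -0.92 and -1.71. The change of MSH5 was larger in wild type, at 3.42, than in the mutants, at 2.93 to 2.97, and that gap made up 0.910 of the range. Wild type is also the strain whose extraction differed between the times, and the part of that in the MSH5 value was not tested.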

How the results depend on the processing

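All 7 genes kept a rise over time in all 15 alternatives, and the 6 other than CST9 stayed called in each. CST9 ran from 1.26 to 2.12 in change and from 0.00380 to 0.343 in adjusted p, and also lost its call with no filter (adjusted p = 0.0524), with no replicate block (adjusted p = 0.0527, 6 of 7 called) and with extraction as a covariate (adjusted p = 0.0652). All tested genes gave 802 calls, 72.6% of them higher, against 968 with 42.3% higher after median centring and 818 with 52.0% higher after quantile normalization. Calls numbered 382 with extraction as a covariate, 1214 within the RNeasy pairs and 364 to 888 with a strain left out, lowest without wild type. Only wild type mixes the extraction methods between times. With strain as a block the covariate therefore takes up that pair, and the 7 genes had the same changes as without wild type, 1.95 for CST9 in both. These settings are not separate checks, and the covariate cannot adjust for extraction beyond dropping that pair. The fit of the mutants against wild type called 0 to 389 genes with a mutant left out and the difference of changes 0 to 553, both highest without the arrays labelled mre11delta, and the cause was not tested. In the median difference of the 7 genes from wild type at 4 h, the arrays labelled mre11delta moved to -0.77 with median centring and -0.82 with quantile normalization, and rad50delta to -0.65 with median centring, and at 0 h rad50delta moved to 0.59 from 0.29 as deposited. A pseudocount of 32 lowered the median change to 3.98 in the arrays labelled mre11delta and to 3.63 in wild type, since low 0 h signals weigh less. None of the results reversed a called direction. Signals under the floor at 0 h limit how well the rises of ZIP2, SPO16 and HFM1 can be sized.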

Other observations

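EXO1, an exonuclease that acts in meiotic recombination, read 172 in the arrays labelled mre11delta, 963 in rad50delta, 1281 in spo11Y135F and 110 in wild type at 4 h, against 60 to 84.1 at 0 h. It was highest in spo11Y135F, where 6 of the 7 ZMM genes were lowest. CDC20, an activator of the anaphase-promoting complex in the list of mitotic markers, read 174, 2155, 4563 and 112 at 4 h in the same order, and was not called over time (limma adjusted p = 0.0998).

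In the SUMO pathway, to whose ligases Zip3 is related, 2 of 10 genes rose, beside 10.6% of all tested genes. ULP2, a protease that removes SUMO chains, read 1067 in the arrays labelled mre11delta, 829 in rad50delta, 361 in spo11Y135F and 360 in wild type at 4 h, against 21.7, 35, 36.9 and 24.8 at 0 h, and rose by 4.03 ± 0.54 (limma adjusted p = 1.71e-05). SLX8, a subunit of a ubiquitin ligase that recognises SUMO, rose by 1.79 ± 0.53 (limma adjusted p = 0.0232). SMT3, the gene for SUMO itself, was not called, with a change of 0.96 ± 0.52 (limma adjusted p = 0.253).

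Among haploid-specific markers 4 of 10 rose in these diploids, beside 10.6% of all tested genes. STE18, a subunit of the pheromone G protein, read 15.5 in the arrays labelled mre11delta, 368 in rad50delta, 1357 in spo11Y135F and 35.3 in wild type at 4 h, against 4.6 to 19.3 at 0 h. The summed signal of the list at 4 h was 1391, 2115, 3425 and 1006 in that order. The list did not move together. STE3, MFA1, STE5, STE18 and HO were highest in spo11Y135F at 4 h, while STE2, GPA1, FUS3 and RME1 were lowest there. MF(ALPHA)1 lay in between. GPA1 read 120.5, 91.3, 41.4 and 79.2, and RME1 read 218, 200, 31 and 86.9 in that order. STE2, the alpha-factor receptor gene, stayed between 24.5 and 44.1 at 4 h.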
